A study of Mus musculus with 12 samples.

Results

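The 4 Hox clusters of the mouse were followed on arrays that compare DNA copy number between tumour cells and normal Schwann cells. The members are 38 Hox genes given by name, each read from the probes that the array assigns to it, on chromosomes 6 (Hoxa), 11 (Hoxb), 15 (Hoxc) and 2 (Hoxd). Of these names 33 had a probe, with 39 probes in all, out of 19984 autosomal gene names and 40726 autosomal probes. Hoxa4, Hoxb8, Hoxb13, Hoxc11 and Hoxd4 had none. The rule uses gene names and positions and no measured value.

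The tumour DNA came from malignant peripheral nerve sheath tumour (MPNST) cells, cultured from 11 tumours of P0-GGFβ3 transgenic mice. In these animals the Schwann cell promoter P0 drives GGFβ3, an isoform of the growth factor neuregulin-1. The 4 tumours B76, B86, B91 and B96 came from C57BL/6J mice. The other 7 (231 Trig, A18, A202, A292, A382, A390, A394) came from mice of the background C57BL/6J x SJL/J and are called mixed. Every array used DNA of non-neoplastic, wild-type C57BL/6J Schwann cells as its reference, so its own spread enters no test. Tumour cultures were kept without forskolin and neuregulin after they were established, whereas Schwann cells always received both. Titles of 10 tumours give passages from 5 to 13, some above the limit that the growth notes state, and the labels do not say whether a culture was 1 clone. A382 was hybridised at passages 8 and 9 and counts once, as the mean of its 2 arrays. Tumour DNA was always in the Cy5 channel, so a dye effect and a tumour effect cannot be told apart. DNA arrays carry no expression, so the cell type was not checked by markers. The separate tumour labels are taken as separate tumours, and p-values measure only the spread between these samples.

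Hox genes encode homeodomain transcription factors that give cells their position along the body axis and the limbs. They stand in clusters that arose by duplication of an ancestral cluster, and within each the gene order matches the order in which the genes are used from head to tail. Low numbers act in the hindbrain and neck, high numbers in the trunk, limbs and tail. Cells of the neural crest, from which Schwann cells derive, carry a Hox code that reflects the level at which they left the neural tube. Because the members of a cluster lie close together, a change in copy number of the surrounding DNA usually takes the whole cluster with it.

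Each cluster filled about the same small stretch of its chromosome (build mm9). The Hoxa probes ran from chr6:52112506-52209081, over 96.6 kb with 9 probes for 9 genes. The Hoxb probes covered chr11:96136964-96228838, over 91.9 kb with 9 probes for 8 genes. The Hoxc probes covered chr15:102758761-102867278, over 109 kb with 9 probes for 8 genes. The Hoxd probes covered chr2:74508024-74602612, over 94.6 kb with 12 probes for 8 genes. Whether a probe lies in an exon, an intron or a UTR is not stated, since no annotation of that build was used.

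The probe sequences below are shown because a gene's value on this array is mostly the value of 1 such oligonucleotide, and because these probes stood farthest above the median of their own cluster or, in Hoxa, Hoxb and Hoxd, farthest below it. They are written 5′ to 3′ as the array files give them, with CpG dinucleotides in capitals. The file gives no strand for the printed letters. The third Hoxd8 probe is added because it lies beside the other two.
Hoxa13, farthest above in Hoxa, chr6:52209027-52209081: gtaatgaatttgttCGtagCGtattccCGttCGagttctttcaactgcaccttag
Hoxa2, farthest below in Hoxa, chr6:52112506-52112565: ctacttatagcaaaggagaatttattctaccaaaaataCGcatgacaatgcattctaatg
Hoxb5, farthest above in Hoxb, chr11:96167143-96167200: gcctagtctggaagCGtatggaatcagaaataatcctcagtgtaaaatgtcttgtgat
Hoxb6, farthest below in Hoxb, chr11:96162706-96162765: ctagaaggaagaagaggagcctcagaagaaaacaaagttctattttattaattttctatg
Hoxc12, farthest above in Hoxc, chr15:102768853-102768903: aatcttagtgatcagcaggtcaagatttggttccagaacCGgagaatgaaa
Hoxd8, first probe, farthest below in Hoxd, chr2:74544421-74544480: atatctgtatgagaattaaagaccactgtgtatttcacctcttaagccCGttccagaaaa
Hoxd8, middle probe, farthest above in Hoxd, chr2:74545021-74545080: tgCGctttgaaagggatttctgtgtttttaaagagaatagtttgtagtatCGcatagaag
Hoxd8, last probe, chr2:74545225-74545284: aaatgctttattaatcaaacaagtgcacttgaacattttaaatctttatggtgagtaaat

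The Hox probes were as rich in G and C as the array at large, with a median of 36.7% in both. At least 1 CpG stood in 69.2% of the Hox probes and in 35.5% of all autosomal probes. The homeobox is shared by the family, but the probes were compared only with each other. Matches of a probe to other Hox genes were not tested. Among themselves the probes were distinct. The longest run of bases common to any of the 741 probe pairs, on either strand, was 11, between a Hoxb6 and a Hoxd3 probe. On every array all 39 probes passed the scanner software's background test, for tumour and for reference signal.

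Values below are log2 ratios of tumour over reference, centred on the median of each array's autosomal probes, so that 0 means the typical autosomal level of that tumour. In a pure population of diploid cells, 3 copies against 2 would give 0.58 and 1 copy against 2 would give -1. The ploidy and purity of these cultures are not known, and no copy number is inferred. A cluster level is the median of its Hox probes.

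The 4 clusters did not share a dosage. Hoxb had the highest ratio, at 0.75 ± 0.23 (SD, n = 11), a 1.68-fold ratio to the reference. Hoxa lay at 0.01 ± 0.21, Hoxc at -0.09 ± 0.17 and Hoxd at -0.13 ± 0.12 (SD, n = 11 each). Hoxb was above Hoxc and Hoxd in 11 of 11 tumours, by 0.84 ± 0.28 and 0.88 ± 0.23 (SD). It was above Hoxa in 10 of 11, by 0.74 ± 0.34 (SD). The other 3 clusters had no common order. Hoxa was above Hoxc in 7 tumours and above Hoxd in 8, and Hoxc was above Hoxd in 7, with mean differences of 0.04 to 0.14 that were smaller than their SDs of 0.19 to 0.25.

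**Figure D1:**
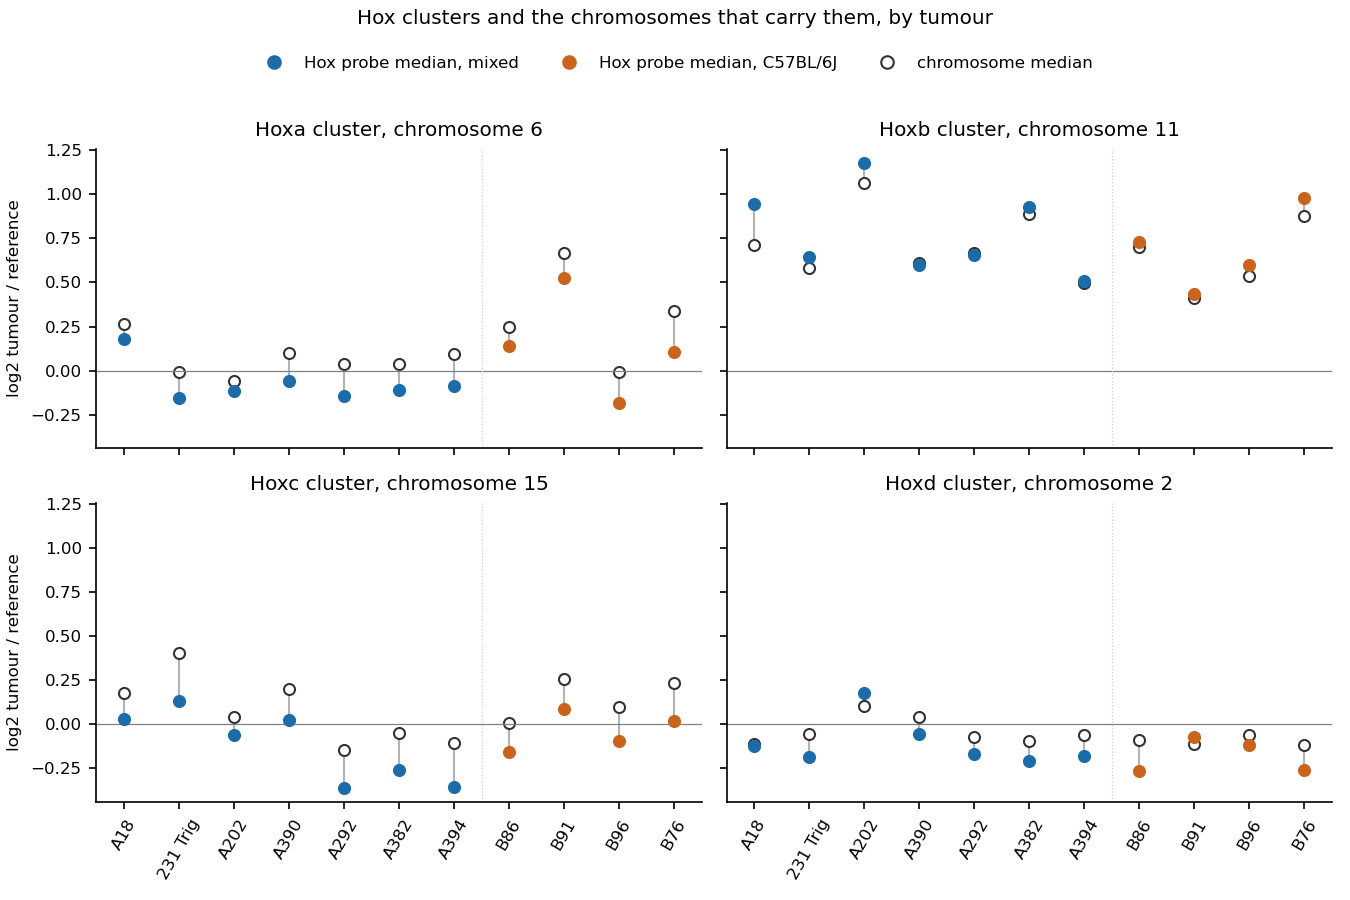
Level of each Hox cluster (filled points, median of its 9 to 12 Hox probes) and of the chromosome that carries it (open points, median of all its probes) in the 11 tumours, as log2 tumour over reference. Filled and open points move together from tumour to tumour, and the Hoxa and Hoxc points lie below the open points in every tumour.

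Hoxb, which holds genes that pattern the hindbrain, neck and trunk, was raised in every tumour. Its level ran from 0.43 in B91 through a median of 0.66 to 1.18 in A202. All 11 tumours were above 0.2, and the 4 highest, A202, B76, A18 and A382, were all above 0.9. All 8 Hoxb genes rose against the reference (limma, Benjamini-Hochberg adjusted p 3.63e-09 to 0.0013 and a mean of at least 0.2), where 18% of all genes passed in that direction. Of the 1557 tested genes of chromosome 11, 95.9% rose, and the chromosome median was 0.69 ± 0.19 (SD, n = 11). In the reference channel by itself, adjusted for G and C content, chromosome 11 probes lay at -0.53 ± 0.04 (SD, n = 12 arrays) around the autosomal median, against -0.0030 for chromosome 6, 0.13 for chromosome 15 and 0.02 for chromosome 2. In the tumour channel chromosome 11 lay at 0.15 ± 0.17 (SD, n = 11). The Hox probes themselves had other levels in single channels. In the reference channel Hoxb lay at -0.02 ± 0.05, Hoxa at 0.18 ± 0.13, Hoxc at 0.45 ± 0.19 and Hoxd at -0.06 ± 0.05 (SD, n = 12 arrays). In the tumour channel Hoxb lay at 0.53 ± 0.18, Hoxa at 0.40 ± 0.21, Hoxc at 0.35 ± 0.20 and Hoxd at -0.25 ± 0.14 (SD, n = 11), so Hoxb and Hoxa were closer there than in the ratio. A level in 1 channel also holds how brightly each probe hybridises. The part of the reference level in the Hoxb ratio was not tested.

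Within Hoxb the highest gene was Hoxb5, which acts in the vagal neural crest that forms the nervous system of the gut, among other tissues. Its ratio was 0.72 in the lowest tumour, 0.94 in the median and 1.63 in the highest, with a mean of 1.02 ± 0.07 (SE, adjusted p = 8.15e-09, limma). All 11 tumours were well above 0. The lowest was Hoxb6, its direct neighbour, with -0.04 in the lowest tumour, 0.26 in the median and 0.71 in the highest, and a mean of 0.29 ± 0.07 (SE, adjusted p = 0.0013, limma). Tumour B91 was below 0 for Hoxb6 and the other 10 were above. Without the arrays of slide 1 Hoxb6 fell under the size minimum at 0.15, and in the C57BL/6J tumours alone it was 0.17 with an adjusted p of 0.11 (limma). With each probe replaced by the median of 5 neighbouring probes it was 0.77. At the ends of the cluster, Hoxb1, which specifies part of the hindbrain, had a mean of 0.88 ± 0.19 and Hoxb9, a thoracic gene, one of 0.75 ± 0.22 (SD, n = 11). Both were above 0.49 in every tumour, at either end of the measured cluster. Hoxb7 stood at 0.90 ± 0.29 (SD), and Hoxb2, Hoxb3 and Hoxb4 lay between 0.62 and 0.67.

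Hoxa, whose genes serve the hindbrain, lung, blood, reproductive tract and limb, followed chromosome 6 from tumour to tumour. Its level was -0.18 in B96, the lowest, with a median of -0.09 and 0.52 in B91, the highest. Besides B91, only A18 at 0.18, B86 at 0.14 and B76 at 0.10 were above 0. These were also the 4 tumours in which chromosome 6 itself was above 0.2, at 0.67, 0.26, 0.25 and 0.34 in the same order. Of all chromosome 6 genes, 37.3% rose and 2.96% fell against the reference, beside 18% and 15.5% of all genes. Of 9 Hoxa genes 1 rose, 1 fell and 7 did not pass. The gene that rose was Hoxa13, needed for digits and the genital tract, with 0.05 in the lowest tumour, 0.28 in the median and 1.00 in B91, and a mean of 0.34 ± 0.07 (SE, adjusted p = 8.44e-04, limma). All 11 tumours were above 0. The gene that fell was Hoxa2, a hindbrain and branchial arch gene at the other end, with -1.02 in 231 Trig, a median of -0.48 and 0.40 in B91. It was below 0 in 10 of 11 tumours, and its mean was -0.42 ± 0.09 (SE, adjusted p = 0.0014, limma). With the normexp background correction Hoxa2 came to -0.12, and in the C57BL/6J tumours alone to -0.30 with an adjusted p of 0.27 (limma). With each probe replaced by the median of 5 neighbouring probes, Hoxa13 was 0.14 and Hoxa2 0.042. In the C57BL/6J tumours alone Hoxa13 was 0.52. Hoxa3, Hoxa6, Hoxa9, Hoxa10 and Hoxa11 had means of 0.00 to 0.12, and Hoxa5 and Hoxa7 of -0.14 and -0.15.

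Hoxc, which holds genes of the neck, trunk and skin and has no members numbered below 4, lay near or below 0. Its level was -0.36 in A292, -0.06 in the median tumour and 0.13 in 231 Trig. The lowest 3, A292, A394 and A382, were at or below -0.26 and were also the tumours with chromosome 15 below 0. None of the 8 Hoxc genes rose, 2 fell and 6 did not pass. Of all chromosome 15 genes, 24.5% rose and 4.49% fell, beside 18% and 15.5% of all genes. Hoxc4, at the cervical end, had -0.53 in the lowest tumour, -0.27 in the median and -0.02 in the highest, all 11 below 0, and a mean of -0.27 ± 0.05 (SE, adjusted p = 3.65e-04, limma). Hoxc5 beside it had a mean of -0.22 ± 0.07 (SE, adjusted p = 0.016, limma) and was below 0 in 8 of 11 tumours. The Hoxc5 call was lost without A18, without B86 or without A394, at -0.20, -0.18 and -0.20. It was also lost with normexp at -0.05, with loess at -0.13, without slide 1 at -0.13, with the running median at -0.16, with mode centring at -0.20, and in the C57BL/6J tumours at -0.10 with an adjusted p of 0.61 (limma). Hoxc4 missed the size minimum or the threshold with normexp at -0.12, without slide 1 at -0.19, with the running median at -0.09, and in the C57BL/6J tumours at -0.21 with an adjusted p of 0.13 (limma). The highest mean in the cluster was 0.08 ± 0.12 (SD, n = 11), for Hoxc12, and the last gene, Hoxc13, which is needed for hair and nails, had -0.08 ± 0.11 (SD).

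Hoxd, best known for patterning the limb, varied least. Its level was -0.27 in B86, -0.17 in the median tumour and 0.18 in A202, which alone was above 0. Of its 8 genes 2 fell, none rose and 6 did not pass. Of all chromosome 2 genes, 19.4% fell and 3.81% rose, beside 15.5% and 18% of all genes. Hoxd11, a forearm gene, had -0.43 in the lowest tumour, -0.28 in the median and -0.04 in the highest, and a mean of -0.26 ± 0.04 (SE, adjusted p = 3.25e-05, limma). Hoxd13, a digit gene, had -0.57, -0.25 and -0.05 in the same order and a mean of -0.26 ± 0.05 (SE, adjusted p = 5.09e-04, limma). Both were below 0 in all 11 tumours. Hoxd11 missed the size minimum with the running median, at -0.08, and Hoxd13 without slide 1, at -0.19. In the C57BL/6J tumours alone Hoxd13 had -0.29 with an adjusted p of 0.051 (limma). Between them in the cluster lies Hoxd12, at -0.05 ± 0.13 (SD), which did not pass. Hoxd10, used in the lumbar spinal cord, had the highest mean, 0.00 ± 0.09 (SD), and Hoxd1, at the far end, had -0.02 ± 0.11 (SD).

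Over all 33 genes, 9 rose, 5 fell and 19 did not pass against the reference, where 18% of all genes rose and 15.5% fell. The 5 that fell became 2 with the running median and 3 with normexp or in the C57BL/6J tumours alone. Over all 19984 genes, the 3089 that fell became 1583, 3362 and 3046 in the same order. The median of the 33 Hox genes was 0.00, beside -0.01 over all genes tested.

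The comparison with the carrying chromosome asks whether a cluster has a dosage of its own. Hoxa lay below the median of chromosome 6 in 11 of 11 tumours, by 0.15 on the log2 scale with an SD of 0.05, and Hoxc below chromosome 15 in 11 of 11, by 0.19 with an SD of 0.05. The differences ran from -0.23 to -0.06 for Hoxa and from -0.27 to -0.11 for Hoxc, and no tumour reached 0 in either. Hoxd was below chromosome 2 in 9 of 11 tumours, at -0.08 ± 0.08 (SD), with A202 and B91 above. Hoxb was above chromosome 11 in 9 of 11, at 0.06 ± 0.07 (SD), and A18 stood apart from the rest at 0.23. These are descriptions of clusters of 9 to 12 probes, with no test. Set against the 5 Mb on either side in place of the whole chromosome, the means were -0.13, -0.15, -0.07 and 0.10 for Hoxa, Hoxc, Hoxd and Hoxb. With the normexp background correction the Hoxb difference came to 0.18, and without slide 1 to 0.03.

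A position on 1 side of its chromosome in all tumours was common on these arrays. Of all 100 kb windows with at least 3 probes, 16.2% lay below their chromosome in all 11 tumours and 13.1% above it. Of the 33 Hox genes, 9 lay below in all 11 tumours, where 20.3% of genes did, and 4 above, where 16.1% did. The 9 were Hoxa2, Hoxa3, Hoxa5, Hoxa7, Hoxb6, Hoxc4, Hoxc6, Hoxc13 and Hoxd11, and the 4 were Hoxa13, Hoxb1, Hoxb5 and Hoxb7.

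Against their chromosome, 2 of 33 Hox genes were higher by the test (9.96% of all genes were) and 9 were lower (13% of all genes were), and 22 did not pass (limma, adjusted p under 0.05 and a size of at least 0.2). The median of the 33 was -0.11, beside -0.01 over all genes. In Hoxb, Hoxb5 was higher by 0.34 ± 0.03 and Hoxb7 by 0.22 ± 0.04, and Hoxb6 between these genes had -0.39 ± 0.05 (SE, adjusted p 8.85e-07, 5.09e-04 and 3.11e-05, limma). In Hoxa, the lower genes were Hoxa2 at -0.58 ± 0.06, Hoxa7 at -0.31 ± 0.04 and Hoxa5, a gene of the lung and neck, at -0.29 ± 0.02 (SE, adjusted p at most 4.00e-05, limma). In Hoxc they were the 3 genes at the cervical end, Hoxc4 at -0.37 ± 0.05, Hoxc5 at -0.32 ± 0.06 and Hoxc6 at -0.24 ± 0.03 (SE, adjusted p at most 2.15e-04, limma). In Hoxd they were Hoxd13 at -0.21 ± 0.04 and Hoxd11 at -0.20 ± 0.02 (SE, adjusted p at most 7.84e-04, limma). Neither Hoxa13 nor Hoxb1 reached the size minimum, both at 0.19. Both passed with normexp (0.27 and 0.30), with flanks of 5 Mb (0.21 and 0.23), in the C57BL/6J tumours (0.21 and 0.24) and without 231 Trig (0.20 each), and Hoxa13 also without slide 1 (0.21).

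**Figure D2:**
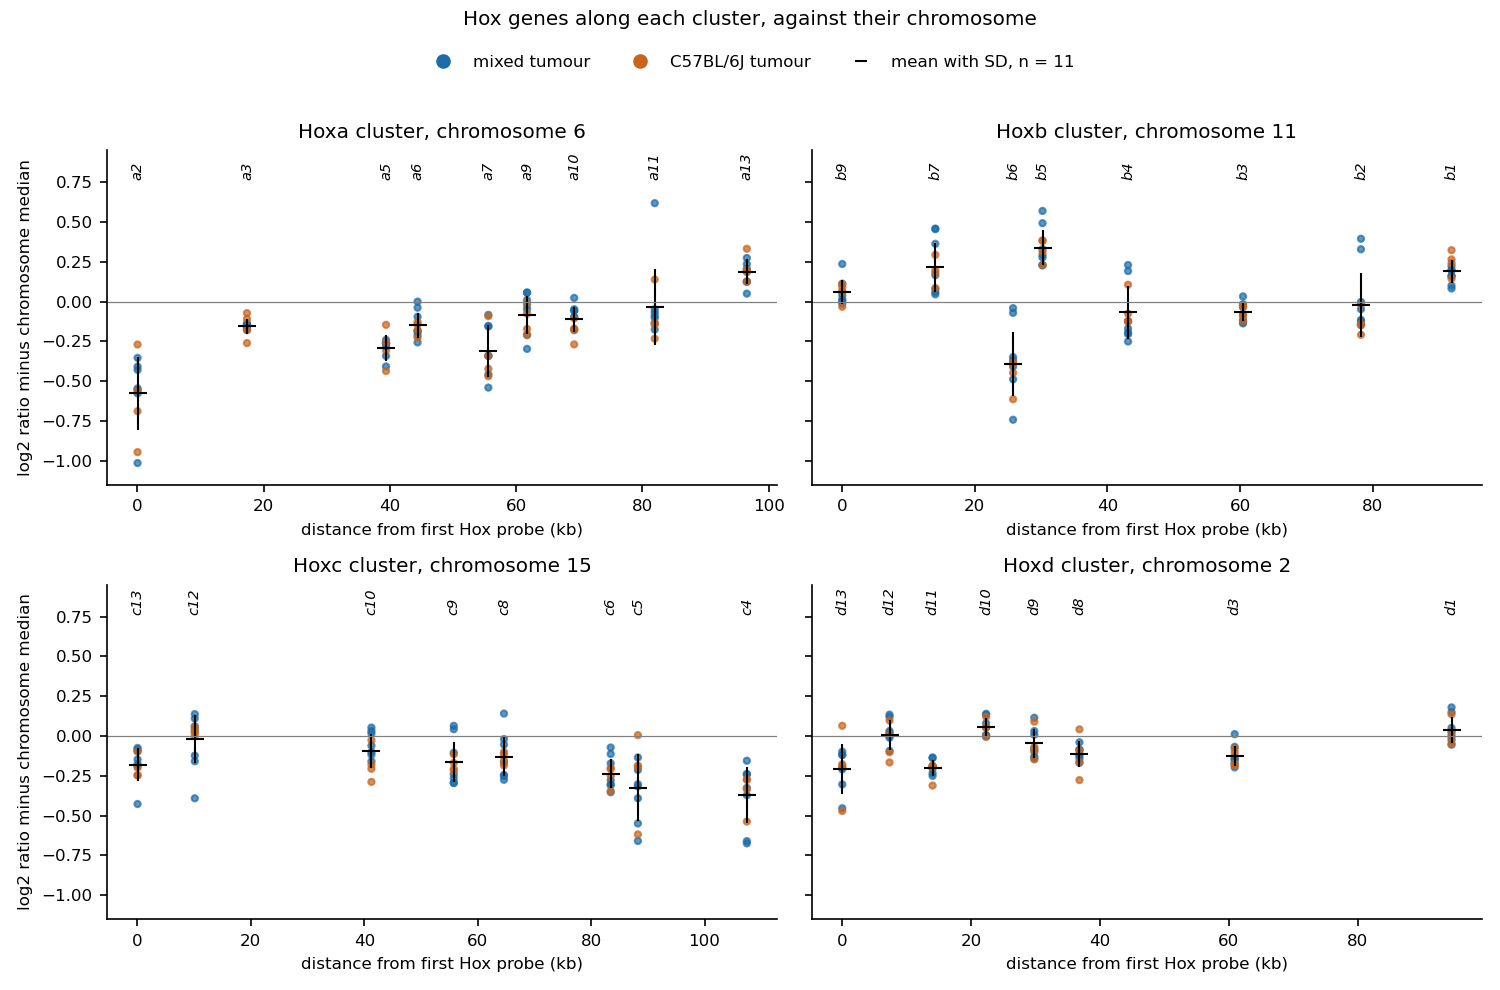
Log2 ratio of each Hox gene minus the median of its chromosome, against distance along the cluster from its first Hox probe in kb, with 1 point per tumour and the mean with SD (n = 11) in black. Hoxb6 at -0.39 stands beside Hoxb5 at 0.34, and Hoxa2 at -0.58 and Hoxa13 at 0.19 mark the ends of Hoxa.

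With each probe replaced by the running median of 5 probes, 3 of the 11 calls were left, all lower: Hoxa7, Hoxc5 and Hoxc6. Over all 19984 genes, calls went from 1991 higher and 2593 lower to 534 and 706. Hoxb6 changed sign, to 0.083, and Hoxb5 came to 0.09. Hoxb7 also missed the size minimum without 231 Trig or without A202, at 0.19 each, in the C57BL/6J tumours alone, at 0.19, and without slide 1, at 0.12. Hoxd11 missed it without 231 Trig, A390 or B76 (-0.20 to -0.19) and with flanks of 5 Mb in place of the chromosome (-0.20). Hoxd13 missed it without A18, 231 Trig or B86 (-0.20 to -0.18), without slide 1 (-0.12), with loess (-0.19), with the adjustment for G and C content (-0.19), and in the C57BL/6J tumours, at -0.19 with an adjusted p of 0.088 (limma). Hoxc5 missed with normexp, at -0.16, and in the C57BL/6J tumours, at -0.25 with an adjusted p of 0.069 (limma), and was -0.20 without slide 1. Hoxc6 missed the minimum with the flanks, at -0.19. With normexp Hoxa2 came to -0.30 and Hoxc4 to -0.24, and both still passed.

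Windows of 100 kb gave the regional level. Both Hoxb windows rose against the reference, at 0.77 ± 0.06 and 0.64 ± 0.07 (SE, adjusted p 1.10e-08 and 4.59e-07, limma), where 14.4% of windows rose and 9.61% fell (932 and 623 of 6481, or 1077 and 419 with each array centred on its mode). The Hoxa windows at 0.02 and 0.03, the Hoxc window at -0.01 and the Hoxd windows at -0.11 and 0.17 did not pass. Against their chromosome, the window with most of Hoxa was at -0.14 ± 0.02 (SE, adjusted p = 1.44e-05, limma) and the Hoxc window at -0.11 ± 0.02 (SE, adjusted p = 5.69e-04, limma), both under the size minimum of 0.2. The window from chr2:74600001-74700000 passed at 0.22 ± 0.02 (SE, adjusted p = 1.05e-06, limma), where 3.97% of windows were higher and 4.55% lower. Only 1 of its 3 probes is a Hox probe, that of Hoxd1, and Hoxd1 itself lay at 0.04 ± 0.03 (SE) against chromosome 2. With 200 kb windows or a grid shifted by 50 kb, no window with a Hox gene passed against its chromosome.

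Profiles were also cut into segments of constant level in each tumour. In all 11 tumours each cluster lay within a single segment, with no break between its probes, also at the laxer penalty of 20. Offsets as small as those between a cluster and its chromosome, over 9 to 12 probes, are hard for either penalty to cut out. The absence of a break therefore does not show that a cluster has the level of its segment. The segments were far longer than the clusters. Those over Hoxb ran for 46.5 to 113 Mb, and in 4 tumours (231 Trig, A18, A202, B86) the segment over Hoxa was the whole of chromosome 6. At a segment mean of 0.2, Hoxb lay in a gained segment in 11 of 11 tumours, Hoxa in 4 (A18, B86, B91 and B76), Hoxc in 3 (231 Trig, B91 and B76) and Hoxd in none. No cluster lay in a lost one. These calls are of the segment, as a ratio to the shared reference. In the reference channel alone chromosome 11 lay at -0.53 ± 0.04 (SD, n = 12 arrays), and its part in the Hoxb calls was not tested. By its own probe median, Hoxb was at 0.2 or more in 11 tumours, Hoxa in 1, and Hoxc and Hoxd in 0. Hoxc and Hoxd were at -0.2 or less in 3 tumours each. Over all probes and tumours, 19.6% were in gained and 7.6% in lost segments. Except for Hoxb, the calls moved with the threshold. At 0.1 Hoxc had 5 gains and 2 losses and Hoxd 3 losses (A18, B86 and B76). At 0.3 Hoxc had 1 gain and Hoxa 2. With the penalty of 20 and the threshold of 0.2, Hoxc had 1 gain (231 Trig) and 1 loss (A292).

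The shortest segments were those at the distal end of chromosome 15. In B86 a break lay 4.22 Mb before Hoxc, with -0.09 after it and 0.02 before, and in B96 one lay 4.27 Mb before Hoxc, with 0.01 after and 0.12 before. On chromosome 6 of B91 the segment with Hoxa, at 0.63, began 4.35 Mb before the cluster, next to a stretch of 5 probes at -0.24. B91 was also the 1 tumour in which Hoxa, at 0.52, stood above Hoxb, at 0.43.

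Probes of the same gene could differ more than the Hoxa, Hoxc and Hoxd levels differed from each other. The 3 Hoxd8 probes, whose sequences are given above, lie within 864 bases. The first probe read -0.57 in the lowest tumour, -0.40 in the median and -0.08 in the highest. The middle probe read -0.06, 0.14 and 0.46, and the last -0.55, -0.25 and -0.10. The middle probe was above both others in all 11 tumours, by 0.51 ± 0.12 over the first and 0.41 ± 0.17 over the last (SD, n = 11). The averaged Hoxd8 value of -0.17 therefore hid probes on both sides of 0. The first of the 2 Hoxc4 probes read -0.49 ± 0.25 and the second -0.05 ± 0.16 (SD), with the second higher in 11 of 11 tumours. The 2 Hoxb3 probes differed by 0.27 ± 0.07 (SD), with the first higher in 11 of 11. Of the 3 Hoxd3 probes, the second was above the first by 0.28 ± 0.15 in 10 of 11 tumours and above the third by 0.12 ± 0.11 (SD) in 9 of 11.

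**Figure D3:**
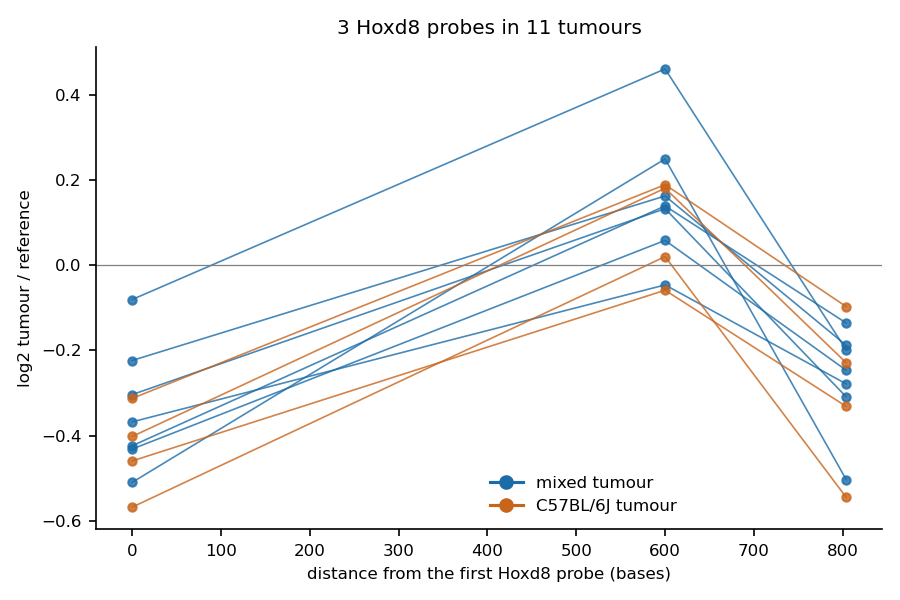
Log2 tumour over reference at the 3 Hoxd8 probes, against distance in bases from the first probe, with 1 line per tumour. The middle probe is the highest of the 3 in all 11 tumours, while the lines keep their spread between tumours.

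Taken from the cluster median, mean offsets of the 39 probes had an SD of 0.18 between probes, against an SD of 0.12 within a probe over tumours, and 14 probes lay on 1 side of their cluster in all 11 tumours. Across the 39 probes the mean offsets in mixed and in C57BL/6J tumours had r = 0.96, a description over probes that share the reference DNA on every array. Offsets of at least 0.2 from the running median were found for 17.9% of Hox probes and 20.4% of all autosomal probes. The 4 tumours hybridised on slide 1, which are 231 Trig, A18, A202 and B86, were the noisiest over Hoxc, where the SD between probes was 0.25 to 0.36, against 0.08 to 0.18 in the other 7 tumours.

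The strain backgrounds were compared because the reference shares its strain with only 4 of the tumours. No Hox gene passed (limma, 0 of 33 passed and 1 had an unadjusted p under 0.05). Over the array 3 of 19984 genes passed, all higher in mixed tumours (0.015%), and none was lower (0.0%). Hoxa lay at -0.07 ± 0.11 in mixed and 0.15 ± 0.29 in C57BL/6J tumours (SD, n = 7 and 4). Its 9 genes were all lower in the mixed tumours, with a median difference of -0.21 and adjusted p from 0.49 to 0.69 (limma), and they share 1 segment, so they are not separate observations. Hoxb lay at 0.78 ± 0.24 and 0.69 ± 0.23, Hoxc at -0.12 ± 0.20 and -0.04 ± 0.11, and Hoxd at -0.11 ± 0.13 and -0.18 ± 0.10 in the same order (SD). In every cluster the ranges of the backgrounds overlapped. The Hoxa difference was smaller than the SD of the C57BL/6J tumours.

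**Figure D4:**
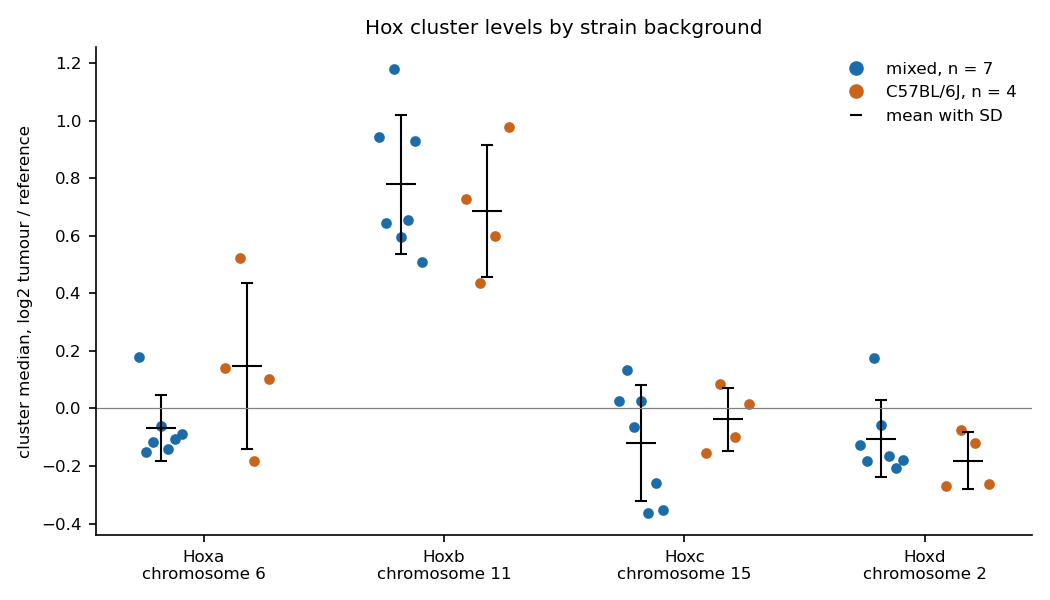
Cluster medians by strain background, as log2 tumour over reference, with 1 point per tumour, the mean and the SD (mixed n = 7, C57BL/6J n = 4). The backgrounds overlap in all 4 clusters.

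A382 was the tumour measured at passages 8 and 9, on slides 2 and 3, so passage and slide cannot be told apart. Its cluster medians differed by -0.04 for Hoxa, 0.09 for Hoxb, -0.04 for Hoxc and -0.03 for Hoxd (passage 9 minus passage 8), each less than the SD between tumours.

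Genes that work with Hox proteins were read from lists chosen by function. Of the 9 TALE cofactors, homeodomain proteins that bind DNA together with Hox proteins, 1 rose, 1 fell and 7 did not pass against the reference. Over all genes 18% rose and 15.5% fell. Meis1 rose at 0.84 ± 0.05 (SE, adjusted p = 3.51e-09, limma) and lies on chromosome 11, where 95.9% of all genes rose. Pbx3 fell at -0.26 ± 0.05 (SE, adjusted p = 3.44e-04, limma) and lies on chromosome 2, where 19.4% fell. None of the 4 measured ParaHox genes, the sister family of Hox, passed against the reference. Gsx1, a forebrain gene, was higher than chromosome 5 by 0.24 ± 0.03 (SE, adjusted p = 1.15e-05, limma) and the other 3 did not pass. Of all genes, 9.96% were higher than their chromosome by this test and 13% lower.

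Of 13 chromatin regulators that keep Hox genes on or off, 3 rose, 3 fell and 7 did not pass against the reference, with a median of -0.03 (18% of all genes rose and 15.5% fell). Cbx2, a Polycomb subunit on chromosome 11, rose at 0.89 ± 0.10 and Men1, a partner of the Mll histone methyltransferases, at 0.28 ± 0.07 (SE, adjusted p 2.95e-06 and 0.0027, limma). Kdm6b, which rose at 0.23, also lies on chromosome 11, where 95.9% of all genes rose. Against that chromosome Kdm6b was lower, at -0.46. Dot1l, the H3K79 methyltransferase, fell at -0.36 ± 0.09 and Ring1, a Polycomb ubiquitin ligase, at -0.24 ± 0.07 (SE, adjusted p 0.0033 and 0.0091, limma). Against their chromosome 2 were higher, 4 lower and 7 did not pass (9.96% of all genes were higher and 13% lower).

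The genes flanking the clusters were read in the same way. Around Hoxb 4 of 5 measured neighbours rose, Skap1 at 0.89, Cbx1 and Calcoco2 at 0.68 and Snx11 at 0.53, while Ttll6 had 0.09 ± 0.37 (SD) and did not pass. On chromosome 11 as a whole 95.9% of genes rose. Against that chromosome Skap1 was higher by 0.21 ± 0.03 and Ttll6 was lower at -0.60 ± 0.07 (SE, adjusted p 4.09e-05 and 6.79e-06, limma), and the other 3 did not pass. By the same test 16.2% of all chromosome 11 genes were higher and 21% lower. Around Hoxa, Hoxc and Hoxd none of the 11 measured neighbours passed against the reference. Of all genes on chromosomes 6, 15 and 2, 37.3%, 24.5% and 3.81% rose and 2.96%, 4.49% and 19.4% fell, in that order. Next to Hoxa, Snx10 lay at -0.18 ± 0.02, Hibadh at -0.16 ± 0.02 and Evx1, itself a homeobox gene, at -0.13 ± 0.05 against chromosome 6 (SE), all under the size minimum. The 4 Hoxa neighbours had a median of -0.15 against the chromosome, beside -0.15 for the 9 Hoxa genes. Next to Hoxc, Calcoco1 was lower than chromosome 15 at -0.29 ± 0.03 (SE, adjusted p = 1.95e-06, limma) and Smug1 and Cbx5 had 0.01 and -0.03. Next to Hoxd, Chn1 was higher than chromosome 2 at 0.21 ± 0.02 (SE, adjusted p = 4.73e-07, limma) and Atf2, Mtx2 and Lnpk had -0.07, 0.03 and 0.12. Against their chromosome, 9.36% of all chromosome 15 genes were higher and 12.4% lower. On chromosome 2 these shares were 7.98% and 11.2%.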

How the data were processed

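Array comparative genomic hybridisation was measured on 12 Agilent 2-colour arrays. The deposited values are log10 ratios, tumour divided by reference per the file headers, made after the scanner software's background subtraction and linear dye normalisation. Each channel's brightness was deposited as intensity. Agilent Feature Extraction 9.5 and build mm9 stand in the submitters' processing notes. The value table of the series did not differ from these log10 ratios (largest difference 0).

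All ratios were put on the log2 scale. Without control spots 43020 spots were left, of which those marked non-uniform or as outliers were set to missing (0.06% to 1.99% per array), and repeated spots of a probe were averaged (42404 probes). Each array was centred on its autosomal median. A gene is the mean of its probes. Gene names are those of the array files, replaced by RefSeq's current symbol where the accession was found (28951 of 29337 probes that carry one). No spot was saturated, and the number of arrays limits the precision.

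Genes and windows were tested over 11 tumours with limma 3.58.1 in R 4.3.3, adjusted over all autosomal genes or windows. Segments came from penalised least squares (penalty 40, at least 5 probes). Python 3.11.15 was used otherwise. The scripts were tested on simulated data. Alternatives were normexp (offset 50), loess, adjustment for G and C content, mode centring, no spots set to missing, a filter on dim probes, the slide as a block, leaving out slide 1 or each tumour, C57BL/6J tumours alone, passage 8 alone, running medians, other windows, flanks, penalties and thresholds. Of each cluster the text names the highest and lowest mean, the first and last gene and the genes passing against the chromosome, and up to 4 of each other list by size, with some further members added for completeness. The members and lists were chosen with earlier results of these data known. The result of 1 gene and the sequence of 1 probe are not reported here.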

Additional observations from a re-analysis of the deposited data

Results flagged for a closer look

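Of 100 groups of values checked, 7 had a tumour far from the others of its background, where chance alone gives about 1 in 20. In mixed tumours A18 was high for the Hoxa cluster median at 0.18, and A202 was high for the Hoxd cluster median at 0.18, for Hoxd3 at 0.11 and for Hoxd11 at -0.038. These Hoxd values of A202 share 1 array and 1 segment. 231 Trig was low against its chromosome for Hoxa2 at -1.01 and for Hoxc13 at -0.43. In C57BL/6J tumours B76 was low against chromosome 2 for Hoxd11 at -0.31.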

How the results depend on the processing

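Most counts and cluster levels kept their side and direction. For Hox genes against their chromosome, the 11 calls fell to 3 with a running median of 5 probes and were 10 to 13 under every other alternative. Over all 19984 genes, the running median took these calls from 1991 higher and 2593 lower to 534 and 706. For Hox windows against their chromosome, the 1 call fell to 0 with 200 kb windows and to 0 with the grid shifted by 50 kb. The Hoxb cluster minus chromosome moved from 0.06 to 0.18 with normexp and to 0.03 without the arrays of slide 1. With the running median, Hoxa2, ratio, reversed to 0.042 and Hoxb6, ratio minus chromosome, reversed to 0.083. The cause of these changes was not tested. Leaving out each tumour gave 13 to 15 calls for Hox genes against the reference and 10 to 11 for Hox genes against their chromosome. Centring on the mode changed windows over the whole array from 932 higher and 623 lower to 1077 and 419, and left 2 Hox windows higher against the reference. No paired analysis was possible because the labels give no replicate numbers shared by the backgrounds. Most genes rest on 1 probe, and the 11 tumours share 1 reference.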
